A study of Homo sapiens with 8 samples.

Results

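Kinesins are ATP-driven motors that move along or shorten microtubules. The kinesin genes described here are the protein-coding genes whose symbol is KIF followed by a number. GENCODE 29 annotates 39 of them on hg38, and 28 are among the 13546 genes of the deposited count table. RNA was sequenced from tumours that grew in nude mice, which lack most T cells, after injection of MDA-MB-231, a long-cultured human breast cancer line of the triple-negative type with a mesenchymal character. The cells were labelled CDK4KO, a knockout of the cyclin D-dependent kinase CDK4, in 4 libraries and CDK4WT, with CDK4 left intact, in 4 libraries. No drug or other treatment is named for either genotype, and the labels do not say how CDK4 was disrupted, whether the knockout is 1 clone, or whether each tumour came from its own mouse.

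The family divides by what its motors carry. Mitotic kinesins build the spindle, move chromosomes and complete cytokinesis, and most of them are made mainly in G2 and M phase, so their RNA is a common readout of how many cells of a tumour are dividing. Transport kinesins carry vesicles, endosomes, mitochondria and RNA towards the cell periphery throughout the cell cycle, and further members serve the primary cilium or regulate microtubule ends. The series title links CDK4 to the cytoskeleton, and the comparison here asked whether kinesin RNA differed between CDK4KO and CDK4WT tumours, and whether mitotic and transport members differed in level, in spread between tumours and in change.

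Of the 39 genes, 13 were placed with the mitotic kinesins, 13 with the transport kinesins and 13 with the others. The count table holds 11, 9 and 8 of these. KIF2B and KIF4B (mitotic), KIF1A, KIF5A, KIF5C and KIF17 (transport) and KIF6, KIF12, KIF19, KIF25 and KIF26A (other) were not analysed here. Every gene of the table exceeds 1 CPM (a count scaled to the size of its library) in at least 4 libraries, so a kinesin high in fewer tumours cannot be in it. The 28 members took between 0.188% and 0.222% of the counts of a library, and single counts per library ran from 32 for KIF26B to 13495 for KIF5B.

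The libraries held 27841000 to 33618000 counts. CDK4 RNA did not separate the genotypes: it stood at 111, 119, 125 and 134 CPM in CDK4KO replicates 1 to 4 and at 115, 107, 116 and 112 CPM in CDK4WT replicates 1 to 4, so every direction below rests on the labels. The tumours carried the markers that are high in the injected line, with VIM, CD44, EGFR and AXL at 338 CPM or more in each library. Of the genes listed as low in this line, ESR1, PGR and CDH1 were not in the table. EPCAM stood between 7.25 and 11.1 CPM. ERBB2, also listed as low, stood between 95.4 and 109 CPM and was not low: per kilobase of exon it was above 64.0% of all genes. Markers of host tissue were low except for the collagen genes COL1A1 and COL1A2 of the fibroblast list. The 3 of 4 fibroblast genes measured summed to 557 to 965 CPM in CDK4KO and 653 to 919 CPM in CDK4WT tumours. Most of this came from COL1A1 (413 to 709 CPM) and COL1A2 (134 to 246 CPM). PDGFRB of the same list was low, at 9.37 to 14.8 CPM. Skeletal muscle genes (3 of 8 measured) summed to 6.58 to 14.1 CPM in CDK4KO and 9.94 to 31.9 CPM in CDK4WT tumours. Leukocyte genes (2 of 4) summed to 14.1 to 16.2 CPM in CDK4KO and 12.4 to 22.3 CPM in CDK4WT tumours. Endothelial genes (3 of 4) summed to 18.3 to 24.3 CPM in CDK4KO and 18.2 to 19.2 CPM in CDK4WT tumours, genes of neurons and Schwann cells (3 of 10) to 15.5 to 17.7 CPM in CDK4KO and 13.4 to 16.7 CPM in CDK4WT tumours, and 1 of 4 fat genes stood at 0.723 to 1.26 CPM in CDK4KO and 1.18 to 2.58 CPM in CDK4WT tumours. DCN of fibroblasts, CDH5 of endothelium and CD68 and ITGAM of leukocytes are not in the table. The part of host cells in the kinesin values was not tested.

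Mitotic kinesins formed a compact group from just above the median gene upwards, whereas transport kinesins ranged from the most abundant member of the family to some of the rarer ones. Compared per kilobase of exon, so that long and short genes can be set side by side, the median level over the 11 mitotic kinesins was 13.1 CPM per kb, with a range of 6.29 to 25.9 CPM per kb, or 4.12-fold. The 9 transport kinesins had a median of 8.35 CPM per kb and ran from 1.94 to 62.6 CPM per kb, or 32.3-fold. The 8 other kinesins had a median of 2.46 CPM per kb and ran from 0.116 to 18.3 CPM per kb. The median over all genes of the table was 6.13 CPM per kb, which 11 of 11 mitotic, 5 of 9 transport and 2 of 8 other kinesins exceeded. The mitotic members KIF18A and KIF14 exceeded it only slightly, at 6.29 and 6.71 CPM per kb. With the longest annotated transcript as the length, the class medians were 20.8 CPM per kb for mitotic and 13.4 CPM per kb for transport kinesins, and the order of the 2 classes held.

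**Figure D1:**
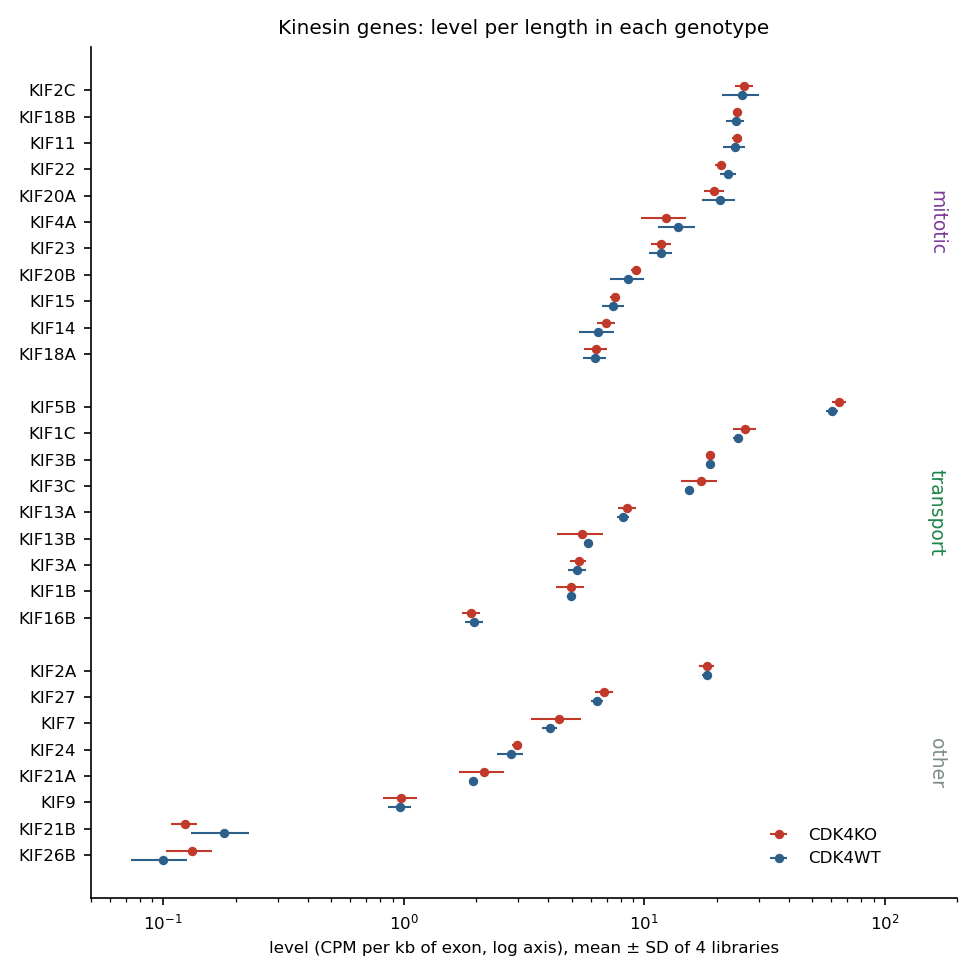
Level of each measured kinesin gene in CPM per kb of exon (log axis), as the mean and SD of 4 CDK4KO libraries (red) and 4 CDK4WT libraries (blue), grouped by class and ordered by level. Mitotic members lie between 6.29 and 25.9 CPM per kb, and transport members spread from 1.94 to 62.6 CPM per kb. The genotypes lie close together for most genes and furthest apart for KIF21B (0.123 CPM per kb in CDK4KO and 0.180 in CDK4WT tumours).

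The most abundant mitotic kinesins per length were KIF2C, KIF18B and KIF11, at 25.9, 24.2 and 24.1 CPM per kb. KIF2C (MCAK, ENSG00000142945, chromosome 1, 44739818 to 44767767) removes tubulin from microtubule ends at kinetochores and so corrects faulty attachments. It stood at 105, 97.8, 85.3 and 93.2 CPM in CDK4KO replicates 1 to 4 and at 105, 102, 97.8 and 69.3 CPM in CDK4WT replicates 1 to 4. CDK4WT replicate 4 was the lowest of all 8 libraries, and the genotypes overlapped. KIF18B (ENSG00000186185, chromosome 17, 44924709 to 44947711), which shortens astral microtubules, had 114, 116, 109 and 113 CPM in CDK4KO and 116, 121, 112 and 98.5 CPM in CDK4WT tumours. By its spread within the genotypes it was the least variable mitotic kinesin, with a CV of 2.72% over the CDK4KO and 8.64% over the CDK4WT tumours. Again CDK4WT replicate 4 was below the other 7 libraries. KIF11 (Eg5, ENSG00000138160, chromosome 10, 92593286 to 92655395) slides antiparallel microtubules apart to make the spindle bipolar and is the target of small-molecule mitotic inhibitors. Its CPM were 123, 122, 115 and 113 in CDK4KO and 118, 125, 123 and 97.8 in CDK4WT tumours, with CDK4WT replicate 4 lowest once more.

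KIF22 and KIF4A are chromokinesins, which bind chromosome arms and push them towards the spindle equator. KIF22 (ENSG00000079616, chromosome 16, 29790719 to 29805385) had 87.3, 96.4, 88.0 and 86.9 CPM in CDK4KO and 99.97, 105, 94.9 and 87.0 CPM in CDK4WT tumours. CDK4KO replicates 1, 3 and 4 lay close together, and CDK4WT replicate 4 was level with them. KIF4A (ENSG00000090889, chromosome X, 70290090 to 70420832), which also sets the length of the central spindle in anaphase, had 71.3, 56.4, 42.7 and 53.1 CPM in CDK4KO and 66.5, 74.3, 62.7 and 47.7 CPM in CDK4WT tumours. It was the most variable mitotic kinesin, with the lowest value in CDK4KO replicate 3 and the next lowest in CDK4WT replicate 4. Reads of KIF4A could also match its near-identical copy KIF4B, so its counts carry that uncertainty.

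The motors of cytokinesis followed. KIF20A (MKLP2, ENSG00000112984, chromosome 5, 138178719 to 138187715), which carries the chromosomal passenger complex to the central spindle, had 84.2, 83.8, 72.2 and 70.2 CPM in CDK4KO and 94.6, 87.1, 81.5 and 64.0 CPM in CDK4WT tumours. CDK4WT replicate 1 was the highest and CDK4WT replicate 4 the lowest of the 8 libraries. KIF23 (MKLP1), the motor of the centralspindlin complex, averaged 77.7 CPM ± 7.45 in CDK4KO and 77.5 CPM ± 8.71 in CDK4WT tumours (SD, n = 4 each). KIF14, which acts with citron kinase at the midbody, averaged 50.7 CPM ± 4.24 in CDK4KO and 46.9 CPM ± 7.86 in CDK4WT tumours. KIF20B, a motor of late cytokinesis, averaged 63.3 CPM ± 2.90 in CDK4KO and 59.0 CPM ± 9.65 in CDK4WT tumours. KIF15, which can hold spindle poles apart when KIF11 is inhibited, averaged 40.0 CPM ± 1.996 in CDK4KO and 39.4 CPM ± 4.14 in CDK4WT tumours. KIF18A, which dampens chromosome movement at the metaphase plate, was the lowest mitotic member per length at 6.29 CPM per kb, with 29.4 CPM ± 3.21 in CDK4KO and 29.3 CPM ± 3.23 in CDK4WT tumours.

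Because the mitotic kinesins shifted together in CDK4WT replicate 4, as described further on, their promoters were searched for the elements known from genes expressed in G2 and M phase. RefSeq (GRCh38.p14) gives a promoter for 24 of the 28 members, each covering 250 bases before and 50 bases after the transcription start. KIF13B, KIF21B, KIF26B and KIF27 had no entry. The search, on either strand, was for the cell cycle homology region (CHR, TTTGAA or TTCGAA), which binds the DREAM and MuvB complexes, for the CCAAT box, which binds NF-Y, and for the core letters bound by E2F factors. The E2F letters were TTGGCGC in 1 form, with TTCCCGC as another, TTGCCGC as the third and TTCGCGC as the fourth. A CHR was present in 9 of 11 mitotic promoters (81.8%), 1 of 8 transport promoters (12.5%) and 1 of 5 other promoters, against 11.3% of the 10667 promoters of genes in the table and 16.6% of all 27305 promoters. A CCAAT box was present in 9 of 11 mitotic (81.8%), 3 of 8 transport (37.5%) and 36.8% of table promoters. Both elements occurred in 8 of 11 mitotic (72.7%), 1 of 8 transport (12.5%) and 4.85% of table promoters. The E2F letters were in 3 of 11 mitotic (27.3%), 3 of 8 transport (37.5%), 0 of 5 other and 20.7% of table promoters. A match says only that the letters are there.

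The windows below run from 150 bases before to 10 bases after the start, read 5′ to 3′ on the strand of the gene, with CHR and CCAAT matches in capitals (a match on the opposite strand appears as TTCAAA or ATTGG). KIF11, KIF18B, KIF22 and KIF23 are shown for the usual mitotic arrangement of a CCAAT box upstream of a CHR near the start. KIF2C, the most abundant mitotic member per length, is shown because its window has no match to the letters searched for either element. KIF3C and KIF5B are shown as transport kinesins.
KIF11 promoter, chr10:92592980-92593139, plus strand: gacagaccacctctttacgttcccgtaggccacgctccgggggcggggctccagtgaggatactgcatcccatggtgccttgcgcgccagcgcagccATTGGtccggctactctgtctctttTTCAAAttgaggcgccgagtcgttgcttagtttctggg
KIF18B promoter, chr17:44947764-44947923, minus strand: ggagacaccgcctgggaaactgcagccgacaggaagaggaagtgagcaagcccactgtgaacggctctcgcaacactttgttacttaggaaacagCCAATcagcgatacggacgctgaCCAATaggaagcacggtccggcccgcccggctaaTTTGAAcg
KIF22 promoter, chr16:29790601-29790760, plus strand: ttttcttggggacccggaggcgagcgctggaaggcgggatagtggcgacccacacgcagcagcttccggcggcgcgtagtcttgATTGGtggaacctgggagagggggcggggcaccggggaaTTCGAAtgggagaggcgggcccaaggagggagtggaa
KIF23 promoter, chr15:69414199-69414358, plus strand: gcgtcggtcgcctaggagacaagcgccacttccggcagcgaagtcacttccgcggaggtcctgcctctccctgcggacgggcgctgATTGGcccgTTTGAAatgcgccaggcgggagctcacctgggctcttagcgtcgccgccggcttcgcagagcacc
KIF2C promoter, chr1:44739687-44739846, plus strand: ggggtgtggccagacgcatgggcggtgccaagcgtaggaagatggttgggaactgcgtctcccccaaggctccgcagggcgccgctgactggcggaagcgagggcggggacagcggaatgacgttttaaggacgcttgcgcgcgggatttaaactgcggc
KIF3C promoter, chr2:25982488-25982647, minus strand: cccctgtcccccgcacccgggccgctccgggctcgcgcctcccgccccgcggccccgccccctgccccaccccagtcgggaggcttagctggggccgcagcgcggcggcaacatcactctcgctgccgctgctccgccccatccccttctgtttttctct
KIF5B promoter, chr10:32056416-32056575, minus strand: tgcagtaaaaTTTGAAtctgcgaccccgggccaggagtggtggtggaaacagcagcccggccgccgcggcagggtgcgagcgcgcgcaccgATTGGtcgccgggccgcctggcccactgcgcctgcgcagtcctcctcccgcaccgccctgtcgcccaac
The CHR of KIF11 begins 28 bases and its CCAAT box 53 bases before the start, those of KIF22 lie 27 and 66 bases before it, and those of KIF23 lie 55 and 64 bases before it. In KIF5B the order is turned round, with the CHR letters 140 bases and the CCAAT box 59 bases before the start. KIF2C was the lowest of its genotype in CDK4WT replicate 4 like the other mitotic members. Its 300 searched bases have no CCAAT letters and no CHR of the forms TTTGAA and TTCGAA. KIF20A has CCAAT boxes without a CHR of these forms. Other forms of the CHR were not searched, so neither promoter can be said to lack one.

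Among transport kinesins KIF5B (ENSG00000170759, chromosome 10, 32009010 to 32056431), the ubiquitous heavy chain of conventional kinesin, was the most abundant member of the family at 62.6 CPM per kb, above 96.1% of all genes. It had 366, 406, 400.2 and 352 CPM in CDK4KO and 348, 377, 364 and 332 CPM in CDK4WT tumours. Replicates 2 and 3 of CDK4KO were the highest of the 8 libraries, and the other 2 CDK4KO libraries lay inside the CDK4WT range. KIF1C (ENSG00000129250, chromosome 17, 4997948 to 5028401), a carrier of vesicles and RNA to cell protrusions, had 205, 224, 260.5 and 211 CPM in CDK4KO and 197, 219, 212 and 216 CPM in CDK4WT tumours. CDK4KO replicate 3 stood above the other libraries, which overlapped.

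KIF3A, KIF3B and KIF3C are kinesin-2 motor chains, which serve intraflagellar transport and the movement of endosomes and other cargo. KIF3B (ENSG00000101350, chromosome 20, 32277664 to 32335011) had 112, 116, 113 and 119 CPM in CDK4KO and 114, 113, 117 and 117 CPM in CDK4WT tumours. Its within-genotype SD of 0.033 on the log2 CPM scale was the smallest of the family, and 0.598% of all genes had a smaller one. KIF3C (ENSG00000084731, chromosome 2, 25926596 to 25982749), an alternative partner of KIF3A, had 117, 116, 125 and 81.8 CPM in CDK4KO and 98.4, 98.5, 96.6 and 101 CPM in CDK4WT tumours. CDK4KO replicates 1 to 3 were above every CDK4WT tumour and CDK4KO replicate 4 was below every one. KIF3A was less abundant, at 36.7 CPM ± 2.81 in CDK4KO and 36.2 CPM ± 3.14 in CDK4WT tumours (SD, n = 4 each).

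KIF13A (ENSG00000137177, chromosome 6, 17759183 to 17987623), which positions recycling endosomes, had 103.5, 98.4, 93.7 and 83.7 CPM in CDK4KO and 89.1, 86.8, 89.4 and 98.6 CPM in CDK4WT tumours. The genotypes overlapped, with CDK4KO replicate 1 highest and CDK4KO replicate 4 lowest. KIF13B (ENSG00000197892), a motor that binds the scaffold DLG1 and the lipid PIP3, had 74.9, 64.4, 63.4 and 43.0 CPM in CDK4KO and 63.8, 65.0, 64.2 and 67.2 CPM in CDK4WT tumours. Its CDK4WT libraries lay within a CV of 2.35%, whereas CDK4KO held both the highest and the lowest of the 8 values, for a CV of 21.7%. KIF1B, which carries mitochondria and, in neurons, synaptic vesicle precursors, averaged 88.1 CPM ± 11.8 in CDK4KO and 88.2 CPM ± 3.32 in CDK4WT tumours. KIF16B, a motor of early endosomes, was the least abundant transport member at 1.94 CPM per kb, with 14.8 CPM ± 1.26 in CDK4KO and 15.2 CPM ± 1.26 in CDK4WT tumours.

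The other kinesins were led by KIF2A, a microtubule depolymerase of spindle poles and of non-dividing cells, at 87.0 CPM ± 5.96 in CDK4KO and 87.4 CPM ± 4.35 in CDK4WT tumours (SD, n = 4 each). KIF7, a regulator of Hedgehog signalling at the tip of the cilium, averaged 22.2 CPM ± 5.27 in CDK4KO and 20.2 CPM ± 1.40 in CDK4WT tumours. KIF27, its close relative, averaged 35.2 CPM ± 3.02 in CDK4KO and 32.7 CPM ± 1.77 in CDK4WT tumours. KIF24, a centriolar kinesin that restrains cilium formation, averaged 18.1 CPM ± 0.836 in CDK4KO and 17.1 CPM ± 2.14 in CDK4WT tumours. KIF21A, which curbs microtubule growth at the cell cortex, averaged 21.8 CPM ± 4.61 in CDK4KO and 19.6 CPM ± 0.60 in CDK4WT tumours. KIF9, known from sperm flagella, averaged 5.73 CPM ± 0.93 in CDK4KO and 5.67 CPM ± 0.638 in CDK4WT tumours. The rarest 2 members were KIF26B, an atypical kinesin, at 1.89 CPM ± 0.406 in CDK4KO and 1.44 CPM ± 0.379 in CDK4WT tumours, and KIF21B, a regulator of microtubule growth known from neurons and T cells. KIF21B (ENSG00000116852, chromosome 1, 200969390 to 201023700) had 1.504, 1.56, 1.68 and 1.23 CPM in CDK4KO and 2.98, 1.89, 2.22 and 1.63 CPM in CDK4WT tumours. CDK4WT replicates 1 to 3 lay above all 4 CDK4KO tumours, and CDK4WT replicate 4 lay inside their range. Exons of KIF9, KIF27, KIF22, KIF7 and KIF2A overlap other annotated genes. In that order, the overlaps cover 1048 of 5850, 789 of 5140, 561 of 4312, 589 of 5001 and 428 of 4774 bases. No source used here names a strand setting for the counting. Reads of the overlapping genes may therefore be among theirs, and some of their own reads may be missing.

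In CDK4WT replicate 4 all 11 mitotic kinesins were at the lowest level of their genotype (100%), against 31.1% of all genes in that library and 1 of 9 transport kinesins. Their summed level was 845, 850, 768 and 781 CPM in CDK4KO replicates 1 to 4 and 866, 888, 835 and 669 CPM in CDK4WT replicates 1 to 4. The median mitotic kinesin lay 0.25 below its own mean over the 8 libraries on the log2 CPM scale in CDK4WT replicate 4, and between -0.05 and 0.13 in the other 7. The same library was lowest of its genotype for 28 of 28 measured other mitosis genes, among them the proliferation marker MKI67 (326, 343, 357 and 353 CPM in CDK4KO, and 313, 350, 328 and 254 CPM in CDK4WT tumours). The mitotic kinesins thus went with the mitosis genes as a whole. In bulk tumour RNA, fewer dividing cells and less RNA per dividing cell cannot be told apart. In that library the 4 tumour line markers went both ways: VIM (11510 CPM) and CD44 (637 CPM) were the highest of the CDK4WT tumours, and EGFR (338 CPM) and AXL (844 CPM) the lowest. The fibroblast sum, at 797 CPM, lay inside the range of the other libraries. The part of either list was not tested.

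Transport kinesins were most often lowest in 1 tumour of each genotype. In CDK4KO replicate 4, 6 of 9 were at the lowest level of their genotype (66.7%), against 27.6% of all genes, and so were 6 of 11 mitotic kinesins (54.5%). In CDK4WT replicate 1, 5 of 9 transport kinesins were at the lowest level of their genotype (55.6%), against 24.6% of all genes and 0 of 11 mitotic kinesins. The pattern was not particular to transport kinesins. In CDK4KO replicate 4, 11 of 19 kinesin partners (57.9%) and 9 of 22 dynein genes (40.9%) were lowest of their genotype. In CDK4WT replicate 1, 12 of 22 dynein genes (54.5%) and 4 of 19 kinesin partners (21.1%) were. Summed transport levels were 1129, 1176, 1189 and 1014 CPM in CDK4KO and 1043, 1105.5, 1081 and 1073 CPM in CDK4WT tumours, replicates 1 to 4. The median transport kinesin deviated by -0.14 from its own mean in CDK4KO replicate 4 and by -0.07 in CDK4WT replicate 1. KIF13B and KIF3C had the largest deviations in CDK4KO replicate 4, at -0.54 and -0.34 on the log2 CPM scale, while KIF3B, at 0.04, was slightly above its mean. The summed levels of the fibroblast list, at 557 CPM, of the skeletal muscle list, at 6.58 CPM, and of the tumour line markers, at 9460.5 CPM, were also lowest in CDK4KO replicate 4. Within the fibroblast list COL1A1 and COL1A2 were lowest in that tumour, and PDGFRB, at 9.99 CPM, was not. The part of these lists in the transport values was not tested. Among the 8 other kinesins at most 4 were lowest of their genotype in any 1 library.

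**Figure D2:**
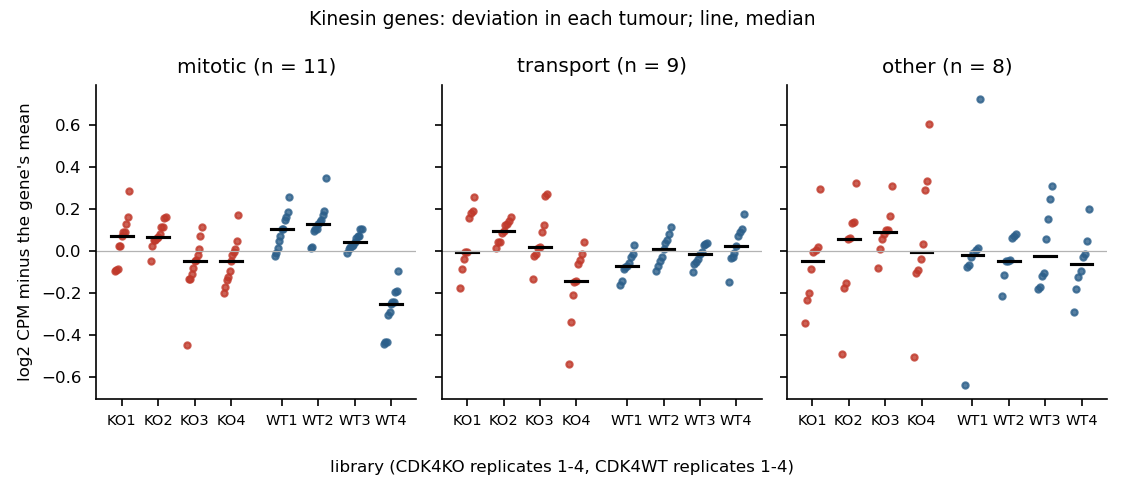
Deviation of each kinesin gene from its own mean over 8 libraries (log2 CPM), for CDK4KO replicates 1 to 4 (red) and CDK4WT replicates 1 to 4 (blue), with a panel per class and a line at the median. Mitotic members drop together in CDK4WT replicate 4 (median -0.25), and transport members are lowest in CDK4KO replicate 4 (median -0.14).

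The spread between tumours of a genotype was larger for mitotic than for transport kinesins. The pooled within-genotype SD of log2 CPM had a median of 0.16 over mitotic, 0.12 over transport and 0.21 over other kinesins, and 0.13 over all genes. The biological coefficient of variation fitted by edgeR lay above the value expected at the same abundance for 6 of 11 mitotic (54.5%) and 3 of 9 transport kinesins (33.3%), against 26.9% of all genes. Within CDK4KO tumours the median SD was 0.12 for mitotic and 0.13 for transport kinesins, and within CDK4WT tumours it was 0.17 and 0.067. The SD was larger in CDK4KO than in CDK4WT for 2 of 11 mitotic and for 8 of 9 transport kinesins, where 9146 of 13546 genes had the larger SD in CDK4KO.

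Both contrasts rested largely on CDK4WT replicate 4 and CDK4KO replicate 4. Without CDK4WT replicate 4 the median SD of mitotic kinesins was 0.12 in CDK4KO and 0.070 in CDK4WT tumours, with 8 of 11 larger in CDK4KO, and the pooled median SD was 0.10 for mitotic against 0.12 for transport kinesins, the opposite order. Without CDK4KO replicate 4 the median SD of transport kinesins was 0.080 in CDK4KO and 0.067 in CDK4WT tumours, with 6 of 9 larger in CDK4KO. The widest transport members, KIF13B and KIF3C, had SDs of 0.34 and 0.27 in CDK4KO against 0.034 and 0.028 in CDK4WT tumours. The widest mitotic members, KIF4A and KIF2C, had SDs of 0.30 and 0.12 in CDK4KO against 0.27 and 0.28 in CDK4WT tumours. The difference in spread between the genotypes was not tested.

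**Figure D3:**
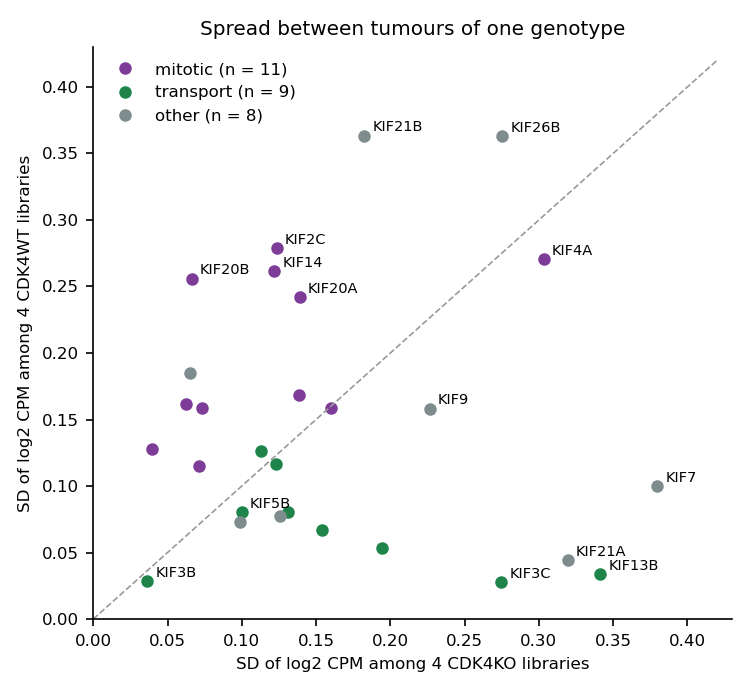
SD of log2 CPM among the 4 CDK4KO libraries (x axis) and among the 4 CDK4WT libraries (y axis) for each kinesin gene, coloured by class, with the line of equality dashed. Of 9 transport members 8 lie below the line (larger SD in CDK4KO), and 9 of 11 mitotic members lie above it.

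No kinesin gene was called between CDK4KO and CDK4WT tumours. Of the 28 members 0 had an adjusted p under 0.05 by the quasi-likelihood test of edgeR, in a table where 8 of 13546 genes (0.0591%) passed, and the smallest adjusted p was 0.311. At an unadjusted p under 0.05 there was 1 member, KIF21B, which was lower in CDK4KO, against 13% of all genes (6.64% higher and 6.33% lower). DESeq2 called 0 members against 2.33% of genes tested. Its unadjusted p was under 0.05 for 1 of 28 members, beside 1815 of 13546 genes. Limma voom with library quality weights called 0 members against 2.37% of genes. Its unadjusted p was under 0.05 for 4 of 28 members (KIF3C, KIF21A, KIF21B and KIF27), beside 2790 of 13546 genes. By either method the share was smaller among the members than among all genes. The CPM of the genotypes failed to overlap in 0 of 28 members and in 7.68% of all genes.

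The class medians of the log2 fold change, CDK4KO minus CDK4WT, were 0.02 for mitotic, 0.02 for transport and 0.09 for other kinesins, beside 0.00 for all genes. Of 11 mitotic kinesins 8 had a positive and 3 a negative value, and of 9 transport kinesins 5 had a positive and 4 a negative one. The signs of the mitotic values moved with the libraries included, most of all with CDK4WT replicate 4. Without CDK4KO replicate 1, 6 of 11 were negative (median -0.024), and without CDK4KO replicate 2, 5 of 11 (median 0.004). Without CDK4WT replicate 4, 11 of 11 mitotic kinesins had a negative log2 fold change, with a median of -0.06, a range of -0.28 for KIF4A to -0.00 for KIF14 and 0 of 28 members called, while 2 of 9 transport kinesins were negative (median 0.04). With the library quality weights of limma voom 8 of 11 mitotic kinesins were negative (median -0.01) and 3 of 9 transport kinesins (median 0.09). Summed over the class, mitotic kinesins averaged 811 CPM ± 42.3 in CDK4KO and 814 CPM ± 99.3 in CDK4WT tumours, and transport kinesins 1127 CPM ± 79.7 in CDK4KO and 1076 CPM ± 25.9 in CDK4WT tumours (SD, n = 4 each). The mitotic difference was smaller than either SD, and the transport difference was smaller than the SD in CDK4KO but larger than that in CDK4WT tumours.

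Among the mitotic members the log2 fold changes ran from -0.17 ± 0.17 (SE) for KIF4A to 0.11 ± 0.12 for KIF14. KIF2C, KIF18B and KIF11 stood at 0.03 ± 0.12, 0.02 ± 0.07 and 0.03 ± 0.08, with 95% intervals of -0.24 to 0.29, -0.13 to 0.17 and -0.14 to 0.20. KIF22, at -0.11 ± 0.07, and KIF20A, at -0.08 ± 0.11, had adjusted p of 0.538 and 0.814 in edgeR. The 95% intervals of these 5 most abundant mitotic motors all lay between -0.33 and 0.29.

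Among the transport members KIF5B stood at 0.10 ± 0.07, KIF1C at 0.09 ± 0.08 and KIF13A at 0.06 ± 0.07. KIF3B had the narrowest interval, with a log2 fold change of -0.00 ± 0.05 and a 95% interval of -0.11 to 0.10. KIF13B stood at -0.08 ± 0.13, with an interval of -0.38 to 0.22. KIF3C had the largest value of the class, 0.16 ± 0.11 (edgeR adjusted p = 0.587). Without CDK4KO replicate 4 it was 0.27 ± 0.05, at an adjusted p of 0.104 in edgeR, the smallest that any member reached under any setting tried. Among the other members KIF21B had the largest difference of the family, -0.55 ± 0.21 (95% interval -1.01 to -0.08, edgeR adjusted p = 0.311), on counts so low that it was left out under a minimum of 10 CPM, and without CDK4WT replicate 1 it was -0.36 ± 0.20. KIF26B stood at 0.40 ± 0.23 and KIF21A at 0.15 ± 0.13.

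**Figure D4:**
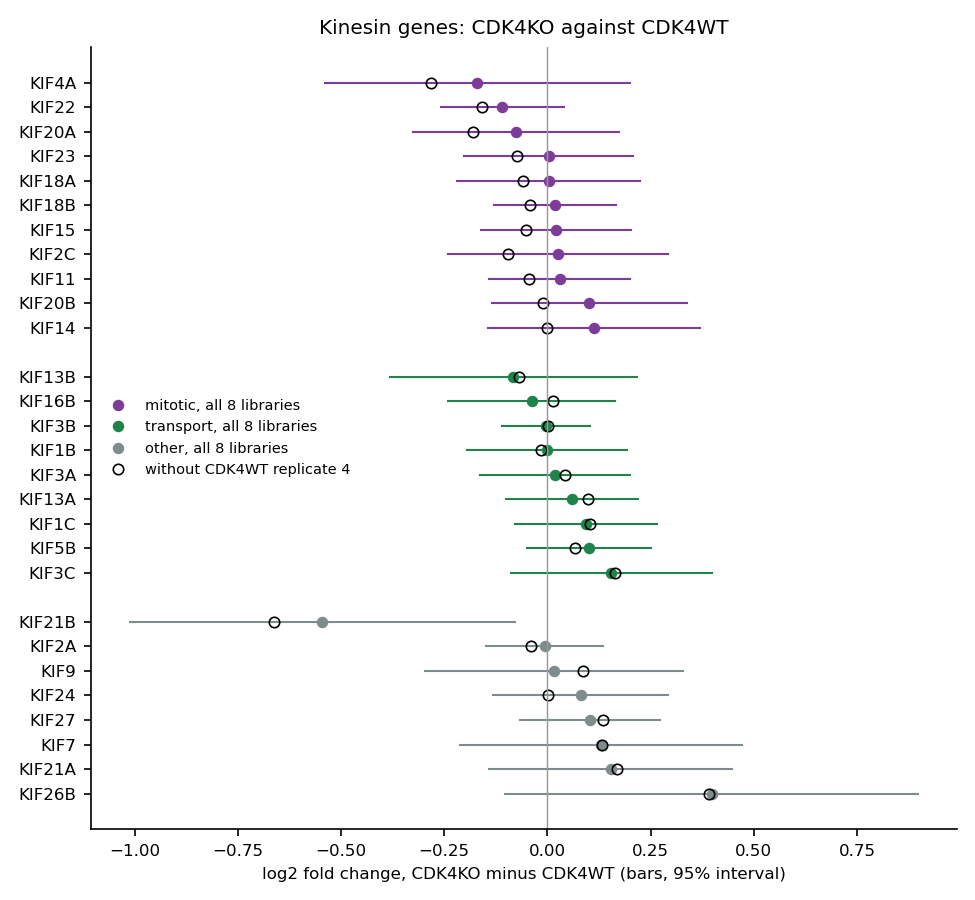
Log2 fold change of each kinesin gene, CDK4KO minus CDK4WT, with its 95% interval from edgeR (filled points and bars, coloured by class) and the value without CDK4WT replicate 4 (open circles). All 11 mitotic open circles lie left of 0 or on it, and KIF21B (-0.55) is the member whose interval does not reach 0.

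Neighbouring genes on the chromosome were examined for the 6 members with the largest SD in CDK4KO tumours, chosen after their values were seen. For each, the median deviation of the 10 measured genes on either side was set beside that of the kinesin. KIF4A deviated by 0.29, -0.05, -0.45 and -0.14 on the log2 CPM scale in CDK4KO replicates 1 to 4, and its 20 neighbours, over 6.06 Mb of chromosome X, by a median of 0.26, -0.20, -0.36 and -0.14. In CDK4WT tumours KIF4A deviated by 0.19, 0.35, 0.10 and -0.29 and the neighbours by 0.12, 0.11, 0.09 and 0.13, so that the drop in CDK4WT replicate 4, which KIF4A shared with the mitotic class, was absent from them. Of the 20 neighbours 18 had a negative log2 fold change, with a median of -0.24, beside -0.17 for KIF4A itself.

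In CDK4KO replicate 4 KIF3C deviated by -0.34 and its neighbours on chromosome 2 by -0.32, and KIF13B deviated by -0.54 and its neighbours by -0.26. These 2 transport kinesins, which had the largest deviations of their class in that tumour, lay among genes that were low there too. The other transport kinesins lowest of their genotype in that tumour were KIF13A, KIF1B, KIF5B and KIF3A. They deviated there by -0.15, -0.21, -0.06 and -0.14 beside -0.14, -0.10, -0.03 and 0.01 in their neighbours. In CDK4KO replicates 1 to 3 KIF3C deviated by 0.18, 0.16 and 0.27 beside -0.01, 0.06 and 0.13 in its neighbours. KIF13B deviated there by 0.26, 0.04 and 0.02 beside 0.04, -0.01 and 0.08 in its neighbours. KIF21A deviated by -0.34, 0.32, 0.31 and -0.04 in CDK4KO replicates 1 to 4 beside -0.14, 0.15, 0.15 and 0.09 in its neighbours. KIF7 deviated by -0.49 in CDK4KO replicate 2 and KIF26B by 0.61 in CDK4KO replicate 4, where their neighbours' medians were -0.08 and 0.19. A neighbour median of at least 0.25 in size, in at least 1 CDK4KO tumour, was found for 4 of 28 kinesins (KIF4A, KIF3C, KIF13B and KIF1B, 14.3%) and for 5.78% of the 13439 genes with enough neighbours. In CDK4WT tumours it was found for 0 of 28 kinesins and 0.275% of genes. Of the 4 kinesins, KIF13B (-0.258 in CDK4KO replicate 4) and KIF1B (0.261 in CDK4KO replicate 1) passed the size of 0.25 only narrowly. DNA copy number was not measured, and its part was not tested.

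**Figure D5:**
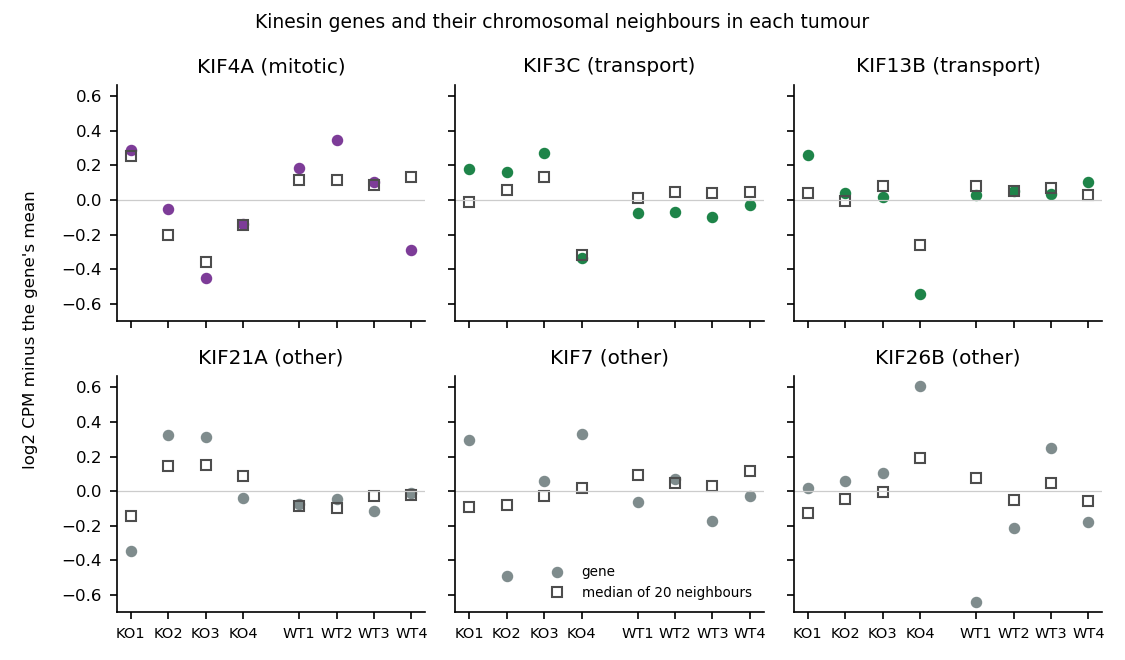
Deviation from the mean over 8 libraries (log2 CPM) of 6 kinesin genes (filled circles) and the median of their 20 chromosomal neighbours (open squares), in CDK4KO replicates 1 to 4 and CDK4WT replicates 1 to 4. KIF4A and its neighbours run close together in CDK4KO (-0.45 and -0.36 in replicate 3), and KIF3C and its neighbours are both low in CDK4KO replicate 4 (-0.34 and -0.32).

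Proteins that work with kinesins gave a similar picture, with 0 genes called. Of 19 measured partners and kinesins outside the KIF naming, 2 (10.5%) had an unadjusted edgeR p under 0.05, beside 13% of all genes. KLC1, a light chain that couples conventional kinesin to cargo, had 109, 95.7, 95 and 107 CPM in CDK4KO and 81.1, 93.6, 77.8 and 84.8 CPM in CDK4WT tumours. All 4 CDK4KO libraries lay above all 4 CDK4WT libraries, which holds for 7.68% of genes in either direction, and the log2 fold change was 0.27 ± 0.07 (edgeR adjusted p = 0.186). KIFC3, a minus-end-directed kinesin, stood at -0.16 ± 0.06 (edgeR adjusted p = 0.282). CENPE, the kinetochore kinesin that moves chromosomes to the plate, stood at 0.21 ± 0.11, and KIFC1, which gathers extra centrosomes, at 0.05 ± 0.11. KIFC1 was low in CDK4WT replicate 4 like the mitotic KIF genes, at 87.0 CPM against 119 to 132 CPM in the other CDK4WT tumours. KIFC2 stood at 0.01 ± 0.07.

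Of 28 measured other mitosis genes 1 (3.57%) had an unadjusted edgeR p under 0.05, beside 13% of all genes. It was NUF2 of the kinetochore (-0.32 ± 0.14, adjusted p = 0.367), and the median log2 fold change was -0.01. FOXM1, the transcription factor of G2 and M phase genes, stood at 0.22 ± 0.10 and AURKB, the kinase of the chromosomal passenger complex, at -0.14 ± 0.08. Of 22 genes of cytoplasmic dynein, the motor that runs opposite to most kinesins, and its cofactors, 2 (9.09%) had an unadjusted p under 0.05 in edgeR, again beside 13% of all genes. They were NDE1 (0.16 ± 0.07, adjusted p = 0.344) and the heavy chain DYNC1H1 (0.15 ± 0.06, adjusted p = 0.374), whose 1475, 1356, 1348 and 1423 CPM in CDK4KO all lay above 1191, 1332, 1288 and 1255 CPM in CDK4WT tumours. DYNC1H1 was the 1 of 22 whose genotypes did not overlap, beside 7.68% of all genes. Of 11 tubulins, the subunits of the track itself, 2 (18.2%) had an unadjusted p under 0.05 in edgeR, beside 13% of all genes: TUBA1C (0.20 ± 0.06, adjusted p = 0.224) and TUBA4A (-0.18 ± 0.06, adjusted p = 0.272), and with TUBA1B they made 3 of 11 tubulins whose genotypes did not overlap, beside 7.68% of all genes. Tubulin genes are near-identical in parts, so their counts are uncertain.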

How the data were processed

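The authors deposited a table of raw counts (unnormalized whole reads for each Ensembl gene) for 4 CDK4KO and 4 CDK4WT tumours. Per the labels' protocols, Trizol was used to extract RNA, and libraries came from an mRNA kit. Per the submitters' processing notes, cutadapt, STAR 2.7.11a, featureCounts 2.0.4 and DESeq2 1.46.0 were used on hg38. Not given in the sources used here are the annotation release, any strand setting and the handling of mouse reads, some of which may have been counted.

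Symbols were found for 13524 of 13546 genes, and coordinates and exon lengths from GENCODE 29 for 13455. In R 4.3.3, edgeR 4.0.16 compared the genotypes over all 13546 genes (TMM, filterByExpr, which removed 0 genes, robust quasi-likelihood test, Benjamini-Hochberg adjustment, threshold 0.05). Standard errors were taken from the F statistic. CPM are scaled by TMM, and log2 CPM used a prior count of 2. DESeq2 1.42.0 and limma 3.58.1 (voom) were alternatives. The steps were tested on simulated data.

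The members, classes and lists were chosen with earlier results of these data known. Members given by library are those with an unadjusted p under 0.05, the 5 most abundant per length and the 2 most and 2 least variable of the mitotic and transport classes. The CDK4KO columns were matched to replicates 1 to 4 through the library names. Since the labels tie no tumour to a mouse of its own, p-values cover only the variation among the 8 libraries. A depth of 27841000 to 33618000 counts makes counting error small for most members.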

Additional observations from a re-analysis of the deposited data

Results flagged for a closer look

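In KIF22 the CDK4KO tumours held 1 value apart from the rest: 96.4 CPM in replicate 2, against 86.9 to 88.0 CPM in the other 3 and 87.0 to 105 CPM in CDK4WT tumours. In KIF26B CDK4KO replicate 4 stood apart at 2.497 CPM, against 1.64 to 1.74 CPM in the other 3 and 1.02 to 1.94 CPM in CDK4WT tumours. In each case the gap to the nearest library, as a share of the range of the 4 libraries, exceeded the 95% limit of Dixon's criterion. Of 62 groups of 4 libraries examined in this way, 56 of them of kinesin genes, these 2 stood apart, and chance alone gives about 1 in 20.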

How the results depend on the processing

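The count of 0 called kinesins held under every setting tried. The number of genes called in the whole table was 8 and moved with the test: 315 by DESeq2, 321 by limma voom with library quality weights, 14 with library size alone as the scaling (7 higher and 7 lower in CDK4KO, against 6 and 2 with TMM), and 3 with CDK4KO replicate 4 and CDK4WT replicate 4 left out together, a setting chosen after seeing the data. Leaving out each library in turn gave 0 to 183 genes: 183 without CDK4KO replicate 1, 17 without CDK4KO replicate 4, 1 without CDK4KO replicate 3 or CDK4WT replicate 1, 2 or 3, and 0 without CDK4KO replicate 2 or CDK4WT replicate 4 (edgeR, with 1688 and 1582 genes at an unadjusted p under 0.05). The cause was not tested. The deviations of same-numbered libraries correlated at -0.03, -0.01, 0.00 and 0.19 for replicates 1 to 4. Those of differently numbered libraries correlated at -0.20 to 0.20. Such values cannot show whether the numbers pair the tumours. With the replicate number as a block 13 genes and 0 kinesins were called.

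Of 233 values of the 13 members given by library, 217 kept their sign, 16 changed it and 0 passed the threshold. The 16 are small. With voom, KIF2C was -0.054, KIF18B -0.00026 and KIF11 -0.0085. Without both replicates 4 they were -0.083, -0.038 and -0.021, and KIF13B was 0.071. With 1 library left out KIF2C ran from -0.096 to 0.083, KIF18B from -0.041 to 0.057, KIF11 from -0.045 to 0.068, KIF3B from -0.018 to 0.0076 and KIF13B from -0.19 to 0.055. CDK4WT replicate 4 gave the lowest value of KIF2C, KIF18B and KIF11, and CDK4KO replicate 4 the highest of KIF13B, when left out. Class medians of the log2 fold change ran from -0.06 to 0.06 (mitotic) and from -0.01 to 0.07 (transport) with 1 library left out. Median levels were 20.8 and 13.4 CPM per kb by the longest transcript, and 15.7 and 7.02 with KIF2A counted as mitotic and the KIF3 genes left out of transport. Under a minimum of 10 CPM, KIF9, KIF21B and KIF26B were not tested.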

Other observations

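PRC1, the microtubule bundler of the central spindle, which binds KIF4A, KIF14, KIF20A and KIF23, was listed at 0.718, 1.47, 0.986 and 1.13 CPM in CDK4KO and 1.14, 1.65, 1.61 and 1.08 CPM in CDK4WT tumours. RACGAP1, the centralspindlin partner of KIF23, had 98.7, 109, 102 and 106 CPM in CDK4KO and 99.3, 104, 101 and 84.9 CPM in CDK4WT tumours. The low PRC1 count stands beside abundant RNA of the motors that PRC1 binds, and whether reads of PRC1 were assigned elsewhere was not tested. KIFAP3, the adaptor of the KIF3 motors, stood at 17.4, 18.9, 17.7 and 23.9 CPM in CDK4KO and at 23.7, 22.0, 21.2 and 21.9 CPM in CDK4WT tumours, with CDK4KO replicate 4, where KIF3C was lowest, highest of the 8 libraries.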
